A study of Mus musculus with 12 samples.

Results

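Motile cilia genes were followed across 12 RNA-seq libraries of mouse hippocampal tissue. They were chosen by name: every gene of the axonemal dynein heavy chain family (Dnah), the dynein intermediate chain family (Dnai), the cilia and flagella associated proteins (Cfap) and the dynein regulatory complex (Drc), plus Foxj1. The rule used no measured value and found 67 of the 27978 genes in the deposited table, 15 Dnah, 5 Dnai, 43 Cfap and 3 Drc genes and Foxj1. The libraries fall into 3 groups of 4, FMT-CON, FMT-DSS and FMT-SP, all taken after fecal microbiota transplantation (FMT). The series' description calls the last group FMT-DSS+SP, and SP is the neuropeptide substance P. The labels do not spell out CON or DSS, and give no strain, age, sex or dose, and every group received a transplant. Nothing in them ties a library to an animal of its own, so every p-value below measures only the spread between these samples, which may be technical. Levels are given in FPKM, a count of fragments scaled to transcript length and to the depth of the library.

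A motile cilium beats because dynein arms slide the doublet microtubules of its core, the axoneme, against each other. Outer arms set much of the beat's power, inner arms its shape, and radial spokes, the central apparatus and the nexin-dynein regulatory complex coordinate the arms. In the brain such cilia stand in tufts on ependymal cells, which line the ventricles next to the hippocampus and move cerebrospinal fluid. The epithelium of the choroid plexus carries cilia of a related kind, whereas most neurons and astrocytes have a single primary cilium without dynein arms. FOXJ1 is the transcription factor that switches on the motile programme, and the RFX factors act with it through the X-box, a motif in the promoters of many cilia genes.

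Promoter sequences are shown first because the members' start sites differ in that motif. A promoter entry of RefSeq (build GRCm38.p6, 250 bases before to 50 after the start site) was found for 43 of the 67 members, 41 of them by symbol. The X-box consensus was searched on both strands, together with a second pattern, the mirrored sites GTTGCNNNGCAAC and GTTGCNNNNGCAAC, which read the same on both strands and can overlap an X-box match. The X-box was found in 12 members (27.9%) and in 3.08% of 26982 other genes with an entry. The mirrored sites were found in 7 members (16.3%) and in 0.419% of the other genes. Among the 7 were Dnah7a, Dnah7b and Dnah7c, near-identical copies that may not count as independent members. Either one was present in 18 members, 41.9% against 3.39%, and Cfap44 held both. In 15 of the 18 the match began within 80 bases before the start site, between -69 and 0. The forkhead motif TGTTTAC was found in 3 members (6.98%, and in 4.05% of other genes). A match describes the letters only and does not show that a factor binds.

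The windows below run from 80 bases before to 20 after the start site, 5′ to 3′ on the strand of the gene, with the match in capitals. They were picked after the values were seen. Dnah6, Dnai2 and Cfap161 followed Foxj1 across the libraries, and Cfap44 followed it less closely. Dnah7b had a correlation with Foxj1 of 0.49, just under the 0.5 used below as a bound, and Cfap36 did not follow it. They lie at chr6:73221612-73221711 (minus strand), chr11:114727339-114727438 (plus), chr7:83794820-83794919 (minus), chr16:44394719-44394818 (plus), chr1:46066773-46066872 (plus) and chr11:29247253-29247352 (minus).
Dnah6: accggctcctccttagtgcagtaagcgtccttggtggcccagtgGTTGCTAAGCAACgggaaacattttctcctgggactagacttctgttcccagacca
Dnai2: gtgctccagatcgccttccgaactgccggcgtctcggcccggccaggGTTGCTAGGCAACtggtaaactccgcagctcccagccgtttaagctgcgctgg
Cfap161: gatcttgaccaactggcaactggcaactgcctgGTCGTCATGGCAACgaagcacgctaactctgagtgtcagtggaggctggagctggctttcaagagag
Cfap44: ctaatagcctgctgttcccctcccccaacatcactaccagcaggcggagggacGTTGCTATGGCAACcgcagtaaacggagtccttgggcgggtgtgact
Dnah7b: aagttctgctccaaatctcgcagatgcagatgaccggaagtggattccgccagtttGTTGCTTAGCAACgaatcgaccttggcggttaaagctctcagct
Cfap36: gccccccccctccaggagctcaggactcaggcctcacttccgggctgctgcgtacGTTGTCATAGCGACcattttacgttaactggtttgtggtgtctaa

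Several features of the libraries touch every result below. Estimated depth, in units of 1000000 mapped fragments, ran from 31.5 in FMT-DSS 3 to 37.1 in FMT-DSS 2. Genes encoded in mitochondria took 27.7%, 29.0% and 24.0% of the summed FPKM in FMT-CON 4, FMT-DSS 4 and FMT-SP 4, and 15.9% to 20.3% in the other 9 libraries. Hippocampal neuron markers were present throughout (15 of 15 measured, none of them at 0 in all 12 libraries), with a summed level of 1498 to 1844 FPKM in 11 libraries and 1039.8 in FMT-CON 1. Choroid plexus markers (16 of 16 measured) summed to between 55.8 FPKM in FMT-SP 1 and 4240.4 in FMT-SP 3. Those sums spanned 64.2 to 3959 in FMT-CON, 1408 to 3206 in FMT-DSS and 55.8 to 4240.4 in FMT-SP, and of these markers Tmem72 was at 0 in FMT-SP 1. Of the 64 motile cilia genes averaging 0.1 FPKM or more, 28 were highest in FMT-CON 1 and 16 in FMT-SP 3. Counts of members that follow Foxj1, the marker-list relations and the comparisons are therefore also given without those 2 libraries.

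Foxj1 varied more within the groups than between them. Its level was 7.70, 6.65, 3.63 and 1.61 FPKM in FMT-CON 1 to 4, 5.01, 4.46, 4.08 and 2.68 in FMT-DSS 1 to 4, and 2.06, 2.76, 8.62 and 1.48 in FMT-SP 1 to 4. The groups overlap, and the highest and the lowest of all 12 values are both FMT-SP libraries. Within each group, the library numbered 4 was the lowest. Those levels rest on an estimated 131 to 830 fragments per library. In order of the group means, FMT-SP stood at 3.73 ± 3.30 FPKM (SD, n = 4), FMT-DSS at 4.06 ± 0.993 and FMT-CON at 4.90 ± 2.79, and no neighbours in that order differed beyond their spread. On the log2(FPKM + 0.1) scale used for all changes and correlations here, the change was -0.08 in FMT-DSS against FMT-CON (two-sided exact permutation p = 0.943). It was -0.42 in FMT-SP against FMT-DSS (exact permutation p = 0.514) and -0.49 in FMT-SP against FMT-CON (exact permutation p = 0.514), where the smallest p that 4 against 4 allows is 0.0286. In tissue samples of this kind, fewer ciliated cells and less RNA per cell cannot be told apart.

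**Figure D1:**
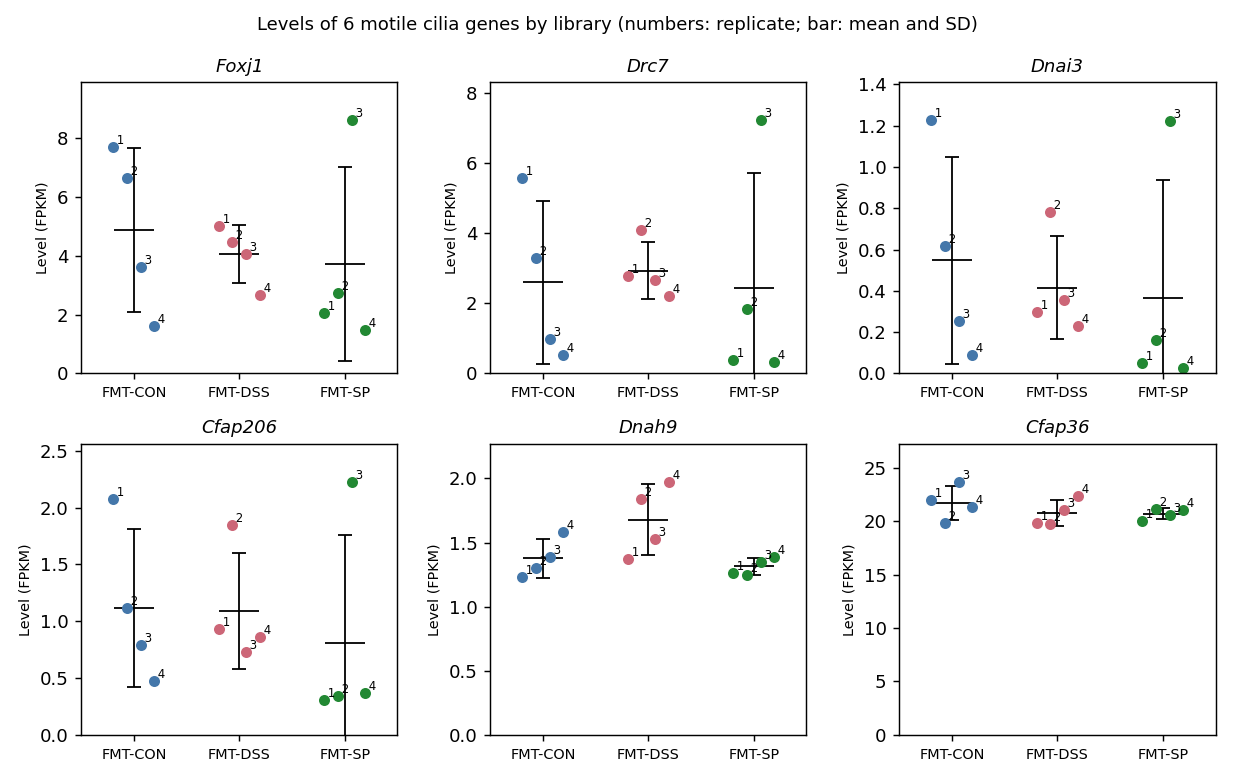
Level in FPKM (vertical axes, from 0) of 6 members in each library, by group. Points are libraries with their replicate number, horizontal bars the group means and vertical bars the SD, which runs below 0 and off the axis for some FMT-SP groups. FMT-CON 1 and FMT-SP 3 are the highest libraries of Foxj1, Drc7, Dnai3 and Cfap206, whereas Cfap36 stays between 19.7 and 23.7 FPKM.

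The name of the set fits only part of it as a view of ependymal cells. The ependymal markers listed lie outside these families only by their deposited names, and include Ccdc153 and Fam183b, also known as Drc12 and Cfap144. Dynlrb2, Ak7 and Meig1 among them also stand in the lists of motile apparatus genes below, so the list is not independent of the cilia genes. These ependymal markers were all measured (13 of 13) and all correlated with Foxj1 over the 12 libraries, with a lowest r of 0.52, 8 of 13 at 0.8 or more and a median of 0.85. Choroid plexus markers did so too, with a lowest r of 0.73, 12 of 16 at 0.8 or more and a median of 0.84, over libraries of which 4 stand apart as low in them. With FMT-CON 1 and FMT-SP 3 left out, the counts at 0.8 or more were 6 of 13 ependymal and 4 of 16 choroid plexus markers. Following Foxj1 is thus not particular to the ependymal list here. The ependymal markers' summed level ran from 26.8 FPKM in FMT-SP 1 to 100.8 in FMT-CON 1. Among the 63 other members at 0.1 FPKM or more on average, 20 (31.7%) had a Pearson r with Foxj1 of at least 0.8, 17 lay between 0.5 and 0.8, and 26 lay below 0.5, 11 of them below 0. Among 17257 other genes at that level, 3.40% reached 0.8. The median r was 0.64 over the members and 0.11 over the other genes. All these correlations share the same 12 libraries, of similar depth, and are given without a test.

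The members most like Foxj1 were low in level and wide in range, and the abundant members were flat. The 20 with an r of at least 0.8 had a median level of 0.482 FPKM, with 6 of them at 1 FPKM or more, and a median ratio of 10.04 between the highest and the lowest library. The 26 with an r under 0.5 had a median level of 2.14 FPKM, with 17 at 1 FPKM or more, and a median ratio of 1.98. The 5 most abundant members were Cfap20 (mean of 27.7 FPKM), Cfap36 (21.1), Cfap418 (19.5), Cfap410 (14.2) and Cfap298 (8.95). Their r with Foxj1 was -0.52, -0.14, 0.16, -0.73 and 0.01. CFAP36 is a partner of the small GTPase ARL3, CFAP418 is needed in photoreceptors and CFAP410 works at the primary cilium, so none of these 3 is known as an axonemal motor part. In Cfap36 the lowest library was at 19.7 FPKM, the median at 21.0 and the highest at 23.7.

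**Figure D2:**
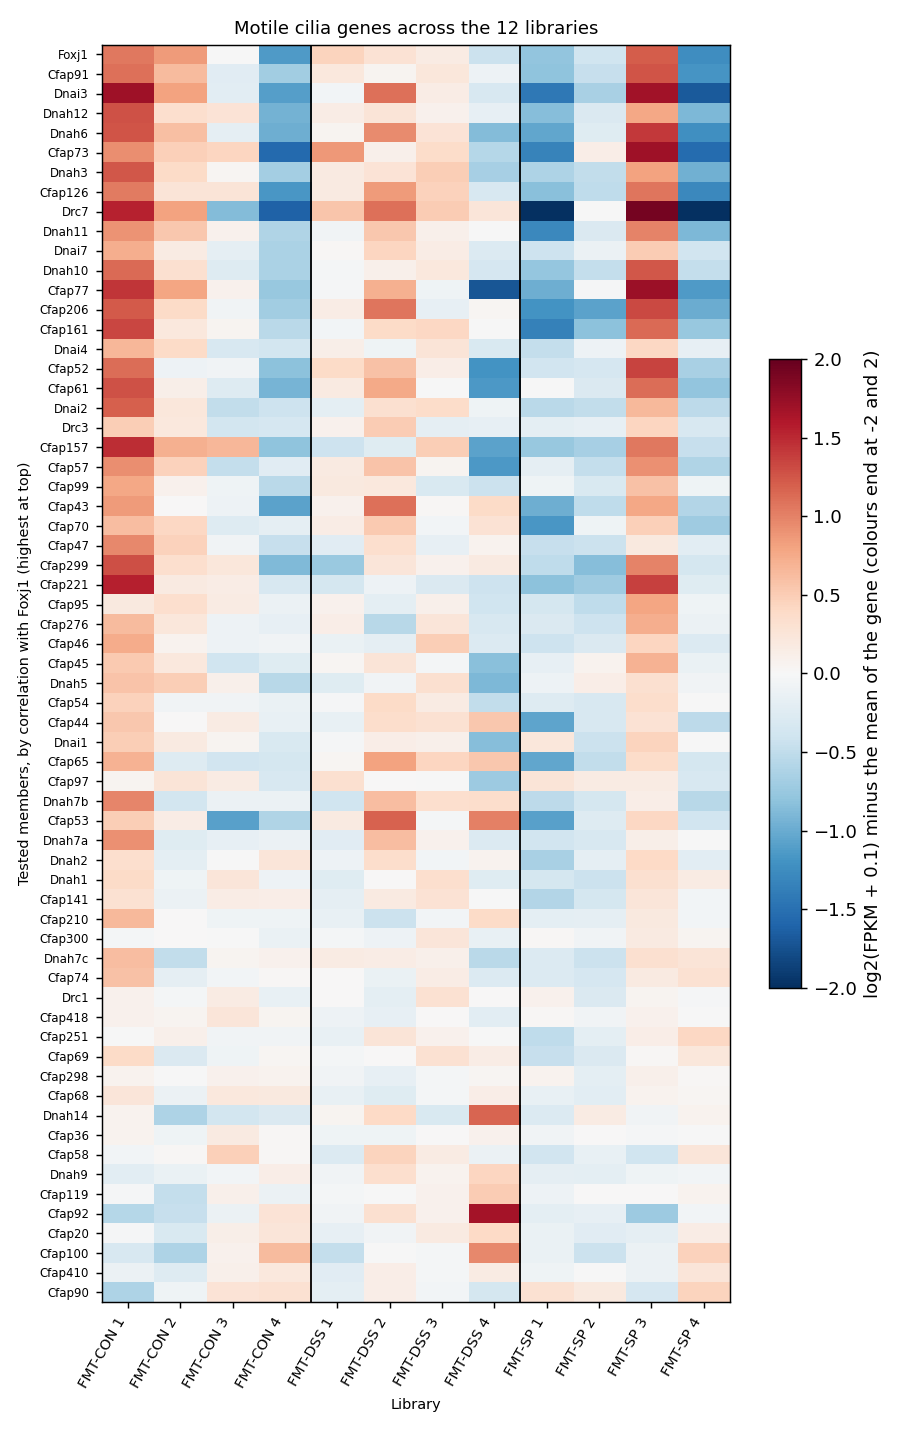
Each row is 1 of the 64 members averaging 0.1 FPKM or more, ordered by correlation with Foxj1 (highest at the top), and each column a library. Colour is log2(FPKM + 0.1) minus the mean of the gene, ending at -2 and 2. The upper rows are red in FMT-CON 1 and FMT-SP 3 and blue in FMT-CON 4, FMT-SP 1 and FMT-SP 4, and the lower rows are mostly pale.

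Of all 64 members tested, 28 had FMT-CON 1 and FMT-SP 3 as their 2 highest libraries, as Foxj1 has. The median of the 64, each gene centred on its own mean, was 0.62 in FMT-CON 1 and 0.41 in FMT-SP 3 on the log2 scale, and lowest in FMT-SP 1 at -0.40. The 20 members with an r of at least 0.8 were chosen for following Foxj1 over these libraries, so their profile is a description of that choice. Their median was 1.21 in FMT-CON 1 and 1.12 in FMT-SP 3. It was -0.73 in FMT-CON 4, -0.82 in FMT-SP 1 and -0.89 in FMT-SP 4. In FMT-DSS it stayed between -0.31 and 0.47. For the 26 members with an r under 0.5 the same median ran only from -0.20 to 0.08. Without FMT-CON 1 and FMT-SP 3, 11 of the 63 members (17.5%) still reached an r of 0.8, against 1.64% of the other genes. Without the 3 libraries numbered 4, which were the lowest of each group in Foxj1, the count was 21 (33.3%, against 2.94%).

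Dynein intermediate chains anchor the dynein arms to their cargo microtubule, and 4 of 5 had an r of at least 0.8 with Foxj1, or 2 of 5 (Dnai3 and Dnai7) without FMT-CON 1 and FMT-SP 3. Dnai3, of the inner arms, was at 1.23, 0.617, 0.255 and 0.0912 FPKM in FMT-CON 1 to 4, at 0.295, 0.781, 0.354 and 0.230 in FMT-DSS 1 to 4, and at 0.0527, 0.162, 1.22 and 0.0283 in FMT-SP 1 to 4. FMT-CON 1 and FMT-SP 3 were high and FMT-SP 4 was lowest, as for Foxj1, and the r of 0.94 came with a 43.3-fold range. Dnai4, also of the inner arms, was the most abundant of the class at a mean of 2.93 FPKM, from 2.01 in FMT-SP 1 to 4.55 in FMT-CON 1. Dnai1 and Dnai2 form a pair in the outer arm. Dnai2 had an r of 0.81 and Dnai1 one of 0.58, with Dnai1 lowest in FMT-DSS 4 at 0.952 FPKM.

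The dynein heavy chains, the motors themselves, were low, and Dnah9 was the only 1 of the 15 with a mean above 1 FPKM. Among the outer arm motors, Dnah5, whose loss stills cilia, averaged 0.354 FPKM with an r of 0.64, on an estimated 73.2 to 312 fragments per library. Dnah11 averaged 0.226 FPKM with an r of 0.91, from 0.0207 in FMT-SP 1 to 0.487 in FMT-SP 3. Dnah9, a motor of the outer part of the cilium, averaged 1.46 FPKM with an r of -0.23, from 1.23 in FMT-CON 1 to 1.97 in FMT-DSS 4. It was thus lowest where Dnah5 was highest. The heavy chains Dnah8 and Dnah17, known from sperm tails, averaged 0.0417 and 0.0147 FPKM and were below the level tested.

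Of the 10 inner arm motors, 4 followed Foxj1 at an r of 0.90 or more (Dnah3, Dnah6, Dnah10 and Dnah12), and all 4 stayed above 0.8 without FMT-CON 1 and FMT-SP 3. Dnah6 was at 1.04, 0.621, 0.322 and 0.142 FPKM in FMT-CON 1 to 4, at 0.397, 0.821, 0.480 and 0.162 in FMT-DSS 1 to 4, and at 0.132, 0.302, 1.17 and 0.103 in FMT-SP 1 to 4. The highest FMT-SP library is thus 11.4 times the lowest. Dnah12 averaged 0.243 FPKM with an r of 0.94. Dnah1, the most abundant of the class at 0.833 FPKM, had an r of 0.44, and Dnah14 one of -0.13. Dnah7a, Dnah7b and Dnah7c are near-identical copies on chromosome 1 among which the counting could split reads, so their values of 0.128, 0.756 and 0.143 FPKM are uncertain.

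The radial spokes, their neighbours and the tethers of the inner arms had the member most like Foxj1, Cfap91, which joins a spoke to the doublet (r = 0.97). Its level was 1.73, 1.23, 0.628 and 0.431 FPKM in FMT-CON 1 to 4, 0.885, 0.793, 0.901 and 0.696 in FMT-DSS 1 to 4, and 0.387, 0.520, 1.93 and 0.277 in FMT-SP 1 to 4. The FMT-DSS libraries were even, and the other groups held both ends. Cfap206, at the base of a spoke, ranged from 0.305 to 2.23 FPKM with an r of 0.87. Without FMT-CON 1 and FMT-SP 3, the count of the class at 0.8 or more went from 4 to 2 of 9, with Cfap91 at 0.95 and Cfap206 at 0.77. Cfap73, a regulator of the inner arms, had an r of 0.94, but its lowest value, in FMT-CON 4, rests on an estimated 1.99 fragments. Its partner Cfap100 had an r of -0.62 and was highest in FMT-DSS 4 at 2.72 FPKM. Cfap44, a tether of an inner arm, averaged 2.21 FPKM (r = 0.60) and Cfap251, a spoke neighbour, 1.32 (r = 0.15).

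In the nexin-dynein regulatory complex, the link between neighbouring doublets, Drc7 had the widest range of any member with a mean of at least 0.5 FPKM. Its level was 5.58, 3.31, 0.973 and 0.537 FPKM in FMT-CON 1 to 4, 2.78, 4.09, 2.67 and 2.22 in FMT-DSS 1 to 4, and 0.388, 1.85, 7.23 and 0.328 in FMT-SP 1 to 4. The highest FMT-SP library was 22.1 times the lowest, and the r with Foxj1 was 0.91, or 0.87 without FMT-CON 1 and FMT-SP 3. Drc3 averaged 4.12 FPKM with an r of 0.81 (0.68 without those 2 libraries) and a ratio of 1.88. Drc1, which starts the assembly of the complex, averaged 4.09 FPKM with an r of 0.26.

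Proteins inside the doublet microtubules divided into both patterns. Cfap126 (r = 0.94), Cfap77 (0.88), Cfap161 (0.85) and Cfap52 (0.84) followed Foxj1. Without FMT-CON 1 and FMT-SP 3 only Cfap126 of these stayed at 0.8 or more (0.90), and Cfap77 was at 0.78, Cfap161 at 0.74 and Cfap52 at 0.71. Cfap52 was at 2.66, 1.08, 1.11 and 0.618 FPKM in FMT-CON 1 to 4, 1.56, 1.81, 1.28 and 0.455 in FMT-DSS 1 to 4, and 0.868, 0.902, 3.15 and 0.706 in FMT-SP 1 to 4. FMT-SP 3 thus stood far above the other FMT-SP libraries, which were at 0.902 FPKM or less. Cfap90, of the same class, had the lowest r of all members (-0.77), with 3.76 FPKM in FMT-CON 1 and 7.95 in FMT-SP 4. Cfap68 averaged 6.34 FPKM with an r of -0.02. Cfap107 was at 0 in 8 libraries and at or below 0.0319 FPKM in the rest.

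None of the 7 central apparatus members reached an r of 0.8, with a median of 0.63. Cfap69 averaged 4.45 FPKM (r = 0.13), Cfap65 2.41 (r = 0.57) and Cfap74 2.08 (r = 0.29). Genes of the central apparatus outside the Cfap family were closer to Foxj1, with 7 of 11 at 0.8 or more. Among these, Spag16 had an r of 0.94 and Hydin, the giant protein of the central pair, 0.87. Among the 13 members without a role class, 1 reached 0.8 (Cfap157, r = 0.80) and the median was 0.16. Cfap298 and Cfap300, which serve dynein arm assembly in the cytoplasm, averaged 8.95 and 5.36 FPKM with ratios of 1.24 and 1.33.

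**Figure D3:**
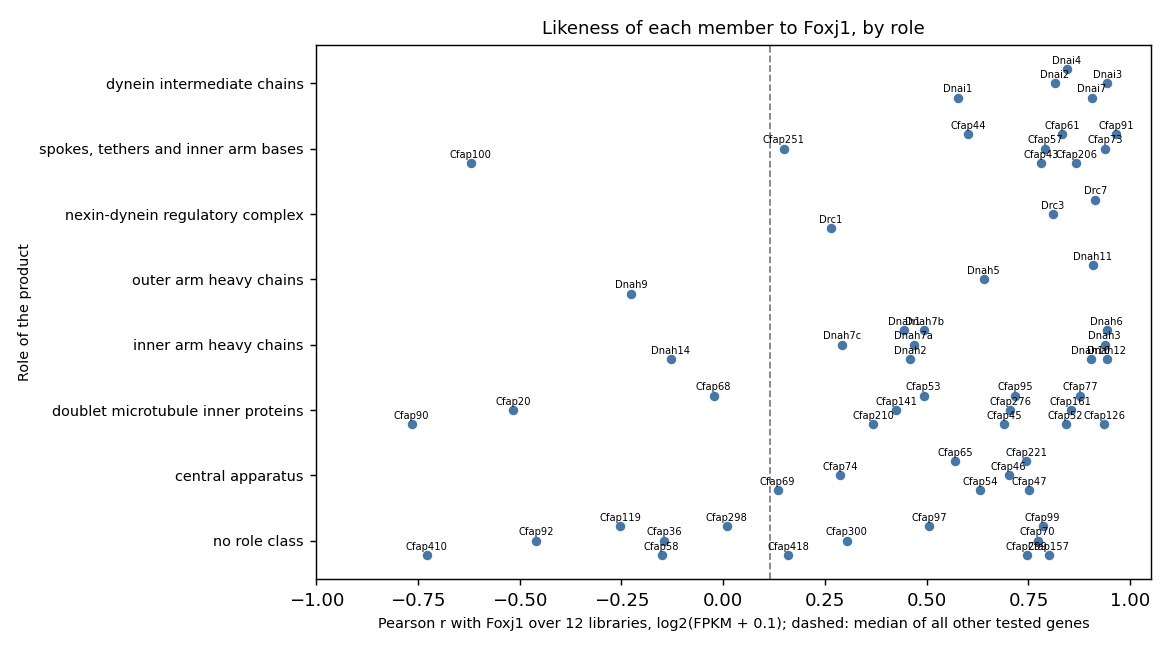
Horizontal axis, Pearson r of each tested member with Foxj1 over the 12 libraries on log2(FPKM + 0.1). Rows are role classes and points members, and the dashed line is the median of the other tested genes (0.11). Intermediate chains sit between 0.58 and 0.94, whereas the inner doublet proteins and members without a class reach down to -0.77 and -0.73 and up to 0.94 and 0.80.

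Promoter matches were present on both sides of that divide. An X-box or a mirrored site was found in 8 of 13 members with an entry and an r of at least 0.8, in 5 of 11 between 0.5 and 0.8, and in 5 of 17 below 0.5. Those 5 were Cfap36, Cfap298, Dnah7a, Dnah7b and Dnah7c. The Dnah7 genes among them are the near-identical copies with uncertain values, and may not count as independent members. Among the 8 were Dnah6 and Dnai2 with mirrored sites, and Cfap161, Cfap52, Cfap61 and Drc7 with an X-box, which in Drc7 begins at the start site itself. Dnah10, Dnah11, Drc3 and Cfap206, all at 0.8 or more, had no match in the window. Taken alone, the X-box was found in 6 of 13, 5 of 11 and 1 of 17 members (Cfap36) in those bands of r. The mirrored sites were found in 2 of 13, 1 of 11 and 4 of 17.

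The other parts of the motile apparatus, in lists written out by role, showed the same mixture. Of 10 radial spoke genes tested, 4 reached an r of 0.8, among them Rsph1 (0.91) and Rsph4a (0.92), whereas Rsph9 was at 0.04 and Rsph3a at 0.01. Of 11 outer arm docking and dynein light chain genes 5 did, with Dynlrb2 at 0.94 and Dnal1, the most abundant at 19.8 FPKM, at 0.27. Of 13 dynein arm assembly factors 3 did (Dnaaf1, Dnaaf3 and Daw1), and Pih1d1, at 13.2 FPKM, was at -0.54. Of 8 nexin-dynein regulatory genes outside the Drc family 3 did, with Gas8, the most abundant at 5.85 FPKM, at -0.49. Of 16 inner doublet proteins outside the Cfap family 3 did, led by Tekt1 at 0.96, with Efcab6 at -0.84. Intraflagellar transport and primary cilium genes had a median r of 0.01 with 1 of 32 at 0.8 or more. Without FMT-CON 1 and FMT-SP 3 the counts at 0.8 or more were 2 of 10 radial spoke, 3 of 11 docking and light chain, 1 of 13 assembly, 2 of 8 nexin-dynein regulatory and 1 of 16 inner doublet genes, and 4 of 11 of the other central apparatus genes.

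Upstream regulators differed widely in level. Gmnc, which starts the multiciliated fate, averaged 1.18 FPKM (r = 0.67), and Mcidas, which acts after it, 0.04 FPKM and was below the level tested. Myb averaged 0.26 FPKM (r = 0.88). Among the RFX factors, Rfx3 averaged 4.25 FPKM (r = 0.49), Rfx2 1.31 (r = 0.54) and Rfx4 1.33 (r = 0.81). E2f4, the most abundant regulator listed at 13.7 FPKM, had an r of -0.54.

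Genes with provisional names (such as Rik, Gm or LOC) were left out of the next ranking. Of the rest, the 8 genes outside the set that averaged 1 FPKM or more and had the highest r with Foxj1 were Rnf13 (0.98), Tspan15 (0.97), Cd82 (0.97), Tekt1 (0.96), Cd24a (0.96), Tmem212 (0.96), Clic4 (0.95) and Pmp22 (0.95). Tekt1 and Tmem212 belong to the lists of cilia and ependymal genes, and the others belong to none of the lists. Rnf13, at 20.4 to 35.2 FPKM, had a far narrower range than Foxj1.

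Foxj1 was then set against the mean log2 level of 8 marker lists, a family of 8 relations with Benjamini-Hochberg adjustment. The lists were chosen with earlier results of these data known, so their p-values are descriptive. The ependymal list also holds motile cilia genes, so a close relation of that list to Foxj1 was likely beforehand. The ependymal list had an r of 0.95 (permutation p = 4e-05, adjusted 0.00032) and a Spearman rho of 0.91 (permutation p = 0.00018, adjusted 0.00144). Without FMT-CON 4 and FMT-SP 4, the libraries farthest from the median of Foxj1, the r was 0.94. Oligodendrocyte markers had an r of 0.82 (permutation p = 0.0015, adjusted 0.006) and a rho of 0.82 (permutation p = 0.0022, adjusted 0.0088), and an r of 0.76 without those 2 libraries. Their summed level was 1497 to 2993 FPKM in FMT-CON, 1284 to 2329 in FMT-DSS and 1205 to 2282 in FMT-SP, highest in FMT-CON 1, and their part in the members' levels was not tested. Astrocyte markers had an r of 0.70 (permutation p = 0.0131, adjusted 0.035) and a rho of 0.69 (permutation p = 0.0169, adjusted 0.0338). Without those 2 libraries, the lowest in Foxj1, the r fell to 0.48, so it depended in part on them. Striatum markers had an r of 0.67 (permutation p = 0.019, adjusted 0.038) and a rho of 0.70 (permutation p = 0.0147, adjusted 0.0338), and an r of 0.61 without those 2. Erythrocyte markers had an r of -0.08 (permutation p = 0.798, adjusted 0.798) and a rho of -0.03 (permutation p = 0.922, adjusted 0.922), and an r of -0.40 without those 2.

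In the other 3 lists some libraries formed a separate cluster and the relation was computed in the larger one. Choroid plexus markers were low in FMT-CON 3, FMT-CON 4, FMT-SP 1 and FMT-SP 4. In the other 8 libraries the r was 0.77 (exact permutation p = 0.0323, adjusted 0.0517) and the rho 0.79 (exact permutation p = 0.0279, adjusted 0.0447), and the r fell to 0.59 without FMT-DSS 4 and FMT-SP 3. Microglia markers were low in FMT-DSS 2 and FMT-DSS 4. In the other 10 libraries the r was 0.65 (permutation p = 0.0447, adjusted 0.0596), the rho 0.65 (permutation p = 0.049, adjusted 0.0653), and the r without FMT-CON 4 and FMT-SP 4 0.54. Hippocampal neuron markers were low in FMT-CON 1. In the other 11 libraries the r was -0.32 (permutation p = 0.333, adjusted 0.381), the rho -0.30 (permutation p = 0.375, adjusted 0.428), and the r without FMT-SP 3 and FMT-SP 4 -0.22. Leaving out FMT-CON 1 and FMT-SP 3, the r of Foxj1 with the list mean was 0.92 for ependymal (10 libraries), 0.71 for oligodendrocyte, 0.63 for astrocyte, 0.64 for striatum and 0.11 for erythrocyte markers. Within the larger clusters it was then 0.42 for choroid plexus (6 libraries), 0.66 for microglia (8) and -0.23 for hippocampal neuron markers (10).

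Ependymal and choroid plexus markers parted in some libraries. Ttr, the transthyretin gene of the choroid plexus, was at 83.5 FPKM in FMT-CON 3, where Tmem212, an ependymal marker, was at 4.45 and Foxj1 at 3.63. In FMT-SP 2, Ttr was at 1835 FPKM with Tmem212 at 2.07 and Foxj1 at 2.76. In FMT-DSS 4, Ttr was at 2302 FPKM with Tmem212 at 1.68 and Foxj1 at 2.68. FMT-CON 3 thus had the lower Ttr and the higher Foxj1 and Tmem212. Not all members that follow Foxj1 did the same: Drc7 was at 0.973 FPKM in FMT-CON 3 but at 1.85 in FMT-SP 2 and 2.22 in FMT-DSS 4, and Cfap91 was at 0.628, 0.520 and 0.696. In FMT-CON 1 and FMT-SP 3 both were high, with Ttr at 3561 and 3779 FPKM and Tmem212 at 10.8 and 10.4. The part of the choroid plexus in the members' levels was not tested.

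**Figure D4:**
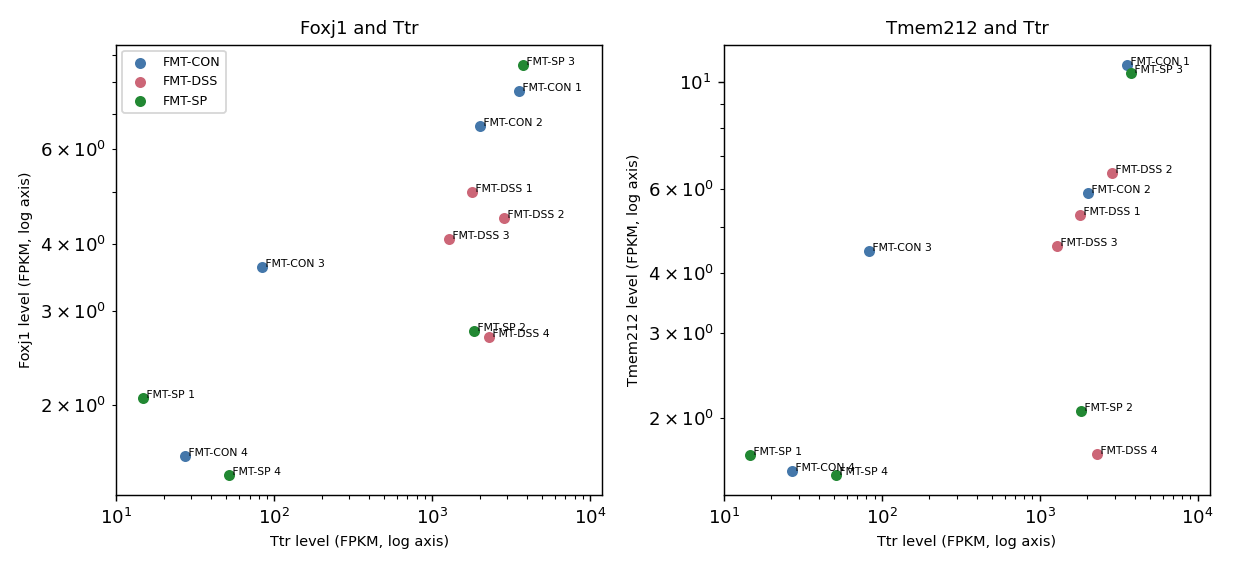
Foxj1 (left) and Tmem212 (right) against Ttr, in FPKM on log axes, 1 point per library coloured by group. FMT-CON 1 and FMT-SP 3 stand highest on both axes, FMT-CON 3 combines low Ttr (83.5 FPKM) with middling Foxj1 (3.63), and FMT-DSS 4 and FMT-SP 2 combine high Ttr with Foxj1 under 3 FPKM.

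The first comparison set the FMT-DSS libraries beside the FMT-CON libraries and asks which genes differ with the transplant received. No motile cilia gene passed the test, limma with Benjamini-Hochberg adjustment over 17321 genes. That holds for 0 of the 64 members tested (3 of the 67 were below a mean of 0.1 FPKM), and for 0 of all genes (0%), whose smallest adjusted p was 0.299. At an unadjusted p under 0.05 there was 1 member (1.56%), and 4.46% of all genes. The mean of log2(FPKM + 0.1) was higher in FMT-DSS in 23 members and lower in 41 (64.1%), with 58.7% of all genes lower. The median change was -0.07 over the members and -0.04 over all genes. The 95% interval of a member's change reached, in the median, 0.67 (log2) to either side.

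The member of smallest p was Cfap418, a photoreceptor protein gene. It was at 20.7, 20.2, 22.9 and 20.2 FPKM in FMT-CON 1 to 4, at 18.1, 17.4, 19.6 and 16.9 in FMT-DSS 1 to 4, and at 19.9, 18.5, 20.7 and 19.5 in FMT-SP 1 to 4. The FMT-DSS libraries all lie below the FMT-CON libraries (17.99 ± 1.18 and 21.0 ± 1.32 FPKM), a change of -0.22 ± 0.08 (SE, limma adjusted p = 0.949). It is the only 1 of 64 members whose groups do not overlap (1.56%), against 1.9% of all genes. Cfap92 was at 3.24 ± 2.17 and 1.74 ± 0.499 FPKM, and 1 library, FMT-DSS 4 at 6.47, made most of that difference, while the other FMT-DSS libraries were between 1.87 and 2.498. Cfap53, Dnah14 and Cfap65 had changes of 0.85 ± 0.42, 0.63 ± 0.31 and 0.52 ± 0.31, with adjusted p of 0.949 each by limma.

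Left-out libraries moved this comparison. Without FMT-CON 1, which leaves 63 members to test, 44 were higher in FMT-DSS and 19 lower, a median change of 0.10, and without FMT-DSS 4 there were 34 higher and 30 lower. The count of members at an unadjusted p under 0.05 was 4 without FMT-CON 1 (6.35%, against 3.92% of all genes) and 4 without FMT-DSS 3 (6.25%, against 9.40%). It was 3 without FMT-CON 4 (4.69%, against 5.19%), 2 without FMT-CON 2 (3.13%, against 4.14%), 2 without FMT-DSS 1 (3.13%, against 7.15%) and 0 without FMT-CON 3 (3.30% of all genes). With the choroid plexus mean as a covariate, 16 members were higher and 48 lower. No member passed the adjusted test in any of these.

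FMT-SP against FMT-DSS asks what set apart the group with substance P. Again 0 of 64 members and 0 of 17321 genes (0%) passed limma's adjusted test, with a smallest adjusted p of 0.310 over all genes. At an unadjusted p under 0.05 there were 3 members (4.69%), all lower in FMT-SP, and 3.25% of all genes. The mean of log2(FPKM + 0.1) was lower in FMT-SP in 43 members (67.2%) and higher in 21, with 43.5% of all genes lower. The median change was -0.13 over the members and 0.03 over all genes. No member's groups were free of overlap, against 1.59% of all genes. The 3 members were Cfap65, Cfap44 and Cfap92.

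Cfap65, of the central apparatus, was at 2.30, 3.99, 3.04 and 3.29 FPKM in FMT-DSS 1 to 4 and at 1.04, 1.57, 2.92 and 1.73 in FMT-SP 1 to 4, with FMT-CON at 3.70, 1.87, 1.69 and 1.73. Its change was -0.82 ± 0.31 (limma adjusted p = 0.998), and FMT-SP 3 alone lay inside the FMT-DSS range. Cfap44 was at 1.89, 2.70, 2.63 and 3.11 FPKM in FMT-DSS 1 to 4 and at 0.960, 1.67, 2.59 and 1.44 in FMT-SP 1 to 4, a change of -0.66 ± 0.27 (limma adjusted p = 0.998). Here too FMT-SP 3 alone lay inside the FMT-DSS range. Cfap92 had a change of -0.78 ± 0.34 (limma adjusted p = 0.998), again with the single high value of FMT-DSS 4. Cfap53 and Dnah9 had changes of -0.91 ± 0.42 and -0.32 ± 0.16.

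Of the single libraries left out, FMT-SP 3 moved the count of members past the unadjusted threshold most, and upward. FMT-SP 3 was the highest of all 12 libraries in 16 of the 64 members, so leaving it out lowers their FMT-SP mean by construction. Without it, 13 of 64 members (20.3%) had an unadjusted p under 0.05, all lower, against 3.13% of all genes, and still 0 passed the adjusted test. Members move together, so these are not independent observations. The 13 were Cfap43, Cfap44, Cfap53, Cfap65, Cfap70, Cfap91, Cfap126, Cfap141, Cfap161, Cfap206, Dnah11, Dnai3 and Drc7. Drc7 then had a change of -2.002 ± 0.71 and Cfap206 one of -1.36 ± 0.41. Without FMT-CON 1 and FMT-SP 3 together, the count was 17 of 63 (27.0%), against 3.78% of all genes. It was 6 without FMT-DSS 1 (9.38%, against 6.94%), 2 without FMT-SP 2 (3.13%, against 2.73%), 1 without FMT-DSS 2 (1.56%, against 1.93%) and 1 without FMT-DSS 4 (1.56%, against 1.75%). It was 0 without FMT-SP 1 (2.23% of all genes) or without the 3 libraries numbered 4 (1.89%). Among the remaining FMT-SP libraries, Ttr was at 14.7 and 51.7 FPKM in FMT-SP 1 and 4, below every FMT-DSS library, and at 1835 in FMT-SP 2, inside the FMT-DSS range. With the choroid plexus mean as a covariate and all 12 libraries, 33 members were higher and 31 lower in FMT-SP.

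FMT-SP against FMT-CON shares its libraries with the other 2 comparisons and is no further evidence beside them. No member passed limma's adjusted test (0 of 64, and 0% of all genes, with a smallest adjusted p of 0.253), and 0 members reached an unadjusted p under 0.05, against 0.785% of all genes. The mean of log2(FPKM + 0.1) was lower in FMT-SP in 57 of 64 members (89.1%) and higher in 7, with 54.5% of all genes lower. Directions of FPKM means can differ, as in Cfap52 with 1.41 FPKM in FMT-SP and 1.37 in FMT-CON. The median change was -0.18 over the members and -0.02 over all genes, and 0 members had groups that did not overlap (0.756% of all genes). Without FMT-CON 1 there were 19 higher and 44 lower with a median of -0.051, without FMT-SP 1 12 and 52 with a median of -0.090, and with the choroid plexus covariate 11 and 53 with a median of -0.16. Leaving out FMT-CON 4 or FMT-SP 3 gave a median of -0.31 or -0.37. The smallest p were those of Cfap44 with a change of -0.54 ± 0.27, Cfap141 with -0.31 ± 0.18, Cfap70 with -0.52 ± 0.34, Cfap68 with -0.19 ± 0.13 and Cfap161 with -0.72 ± 0.50, all with an adjusted p of 0.99999 by limma. Cfap161, a protein inside the doublet, was at 1.17, 0.480, 0.419 and 0.245 FPKM in FMT-CON 1 to 4 and at 0.0970, 0.184, 0.998 and 0.195 in FMT-SP 1 to 4. Its groups overlap through FMT-SP 3.

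Here too, leaving out FMT-SP 3 lowers FMT-SP by construction in the members highest in that library. Without FMT-SP 3, 13 members (20.3%) had an unadjusted p under 0.05, all lower, against 2.70% of all genes. Foxj1 was among them with a change of -1.002 ± 0.45, and 0 passed the adjusted test. Without FMT-CON 1 as well, 4 of 63 had an unadjusted p under 0.05 (6.35%), against 1.34% of all genes. The count was 4 without FMT-CON 4 (6.25%, against 1.16%). Members move together across libraries, so a count of members that share a direction is not a count of independent observations.

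**Figure D5:**
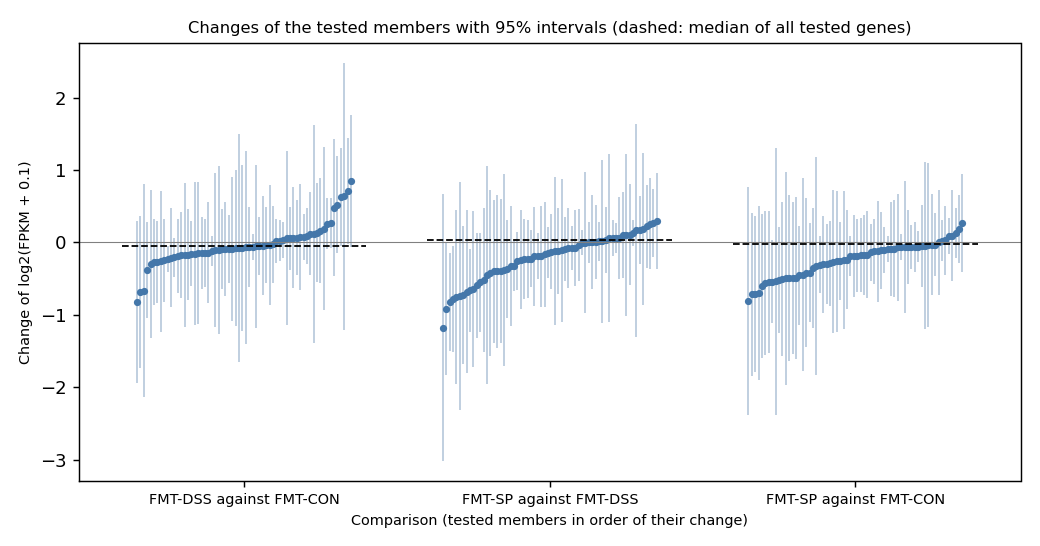
Change of log2(FPKM + 0.1) of the 64 tested members in each comparison, in order of size, with 95% intervals from limma. Dashed lines are the medians of all tested genes (-0.04, 0.03 and -0.02). Most intervals cross 0, and the points lie mostly below 0 in FMT-SP against FMT-CON.

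The marker lists gave no call in any comparison by limma. Ependymal markers outside the families had lower means in FMT-SP than in FMT-CON in 12 of 13 genes (median change -0.52), lower than in FMT-DSS in 11 of 13 (-0.42), and lower in FMT-DSS than in FMT-CON in 8 of 13 (-0.18). Choroid plexus markers were higher in FMT-DSS than in FMT-CON in 15 of 16 (0.73), lower in FMT-SP than in FMT-DSS in 16 of 16 (-1.05) and lower in FMT-SP than in FMT-CON in 15 of 16 (-0.24). Oligodendrocyte and striatum markers were lower in FMT-SP than in FMT-CON in 10 of 10 genes each (-0.33 and -0.44), and striatum markers were lower in FMT-SP than in FMT-DSS in 10 of 10 (-0.73). Microglia markers were lower in FMT-DSS than in FMT-CON in 11 of 11 (-0.76) and higher in FMT-SP than in FMT-DSS in 11 of 11 (0.68), with FMT-DSS 2 and FMT-DSS 4 low in them. The part of these lists in the members' values was not tested. The choroid and ependymal medians thus had opposite signs in FMT-DSS against FMT-CON and the same sign in the others. Radial spoke genes were lower in FMT-SP than in FMT-CON in 10 of 10 (-0.29), and intraflagellar transport and primary cilium genes in 18 of 32 (-0.01).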

How the data were processed

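The authors deposited 1 FPKM value per gene and library. Per the submitters' processing notes, HISAT2 2.0 and the genome build mm8 were named without their roles. The sources used here give no counter, annotation or strand setting. Groups and replicate numbers come from the sample titles. Members and gene lists were chosen with earlier results of these data known.

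Depth was estimated from the steps of low values in 4709 genes with a single transcript (39.2% to 42.0% of values within 0.05 of a whole fragment, 10% by chance). At that depth a single fragment is worth 0.0135 to 0.0159 FPKM for a 2000-base transcript. No pair of libraries was identical (0 pairs). Genes averaging 0.1 FPKM or more over the libraries were tested as log2(FPKM + 0.1) with limma 3.58.1 in R 4.3.3: 12 libraries in 1 model, mean-variance trend, two-sided, Benjamini-Hochberg over all tested genes, threshold 0.05. A pseudocount and filter of 1 would have left 31 of the 67 members. A change on this scale understates the change of low genes. Foxj1 was also tested by exact permutation over 70 assignments, and correlations by 100000 permutations, or exactly under 10 libraries. A list's libraries were taken as separate clusters where a gap was at least 35% of its range. The model was tested on simulated data. Python 3.11.15 and scipy 1.17.1 were used.

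Members named are Foxj1, the 3 of highest mean in each role class (6 without one), the 5 of smallest p per comparison, the 5 of highest and of lowest r, and the 5 of largest and of smallest range at 0.5 FPKM or more. Of other genes, the 8 most like Foxj1 (provisional names left out) and up to 4 of each list of highest mean are named. Genes named beyond that, in left-out fits, among promoters or beside their class, were chosen after their values were seen. Alternatives were other pseudocounts, filters and scalings, array weights, a choroid plexus covariate, the replicate block and left-out libraries. Leaving out FMT-CON 1 with FMT-SP 3, and the libraries numbered 4, was added after the data were seen.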

Additional observations from a re-analysis of the deposited data

Results flagged for a closer look

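Of 120 sets of 4 libraries (40 named members in 3 groups), 12 had a library far from the other 3 by Dixon's criterion on FPKM. The criterion's nominal rate is about 5% of sets. That rate cannot be set against the 12, because some of the 40 were named for their range, r or p in these same values. The FPKM values were also not log2-transformed here. Members move together, so the sets are not independent. FMT-SP 3 was the high library in 7. It had 2.23 FPKM in Cfap206 (others 0.305 to 0.365), 3.15 in Cfap52 (0.706 to 0.902), 1.93 in Cfap91 (0.277 to 0.520), 0.998 in Cfap161 (0.0970 to 0.195), 0.999 in Dnai2 (0.380 to 0.397), 1.22 in Dnai3 (0.0283 to 0.162) and 5.44 in Drc3 (3.20 to 3.57). Its choroid plexus markers were the highest of all libraries, at a sum of 4240.4 FPKM, and their part was not tested. FMT-CON 1 was high in Cfap65 at 3.70 FPKM (others 1.69 to 1.87) and in Dnah7b at 1.496 (0.530 to 0.647). FMT-CON 2 was low in Cfap298 at 8.92 FPKM (9.40 to 9.48) and in Cfap68 at 5.80 (7.25 to 7.46). FMT-DSS 4 was high in Cfap92 at 6.47 FPKM (1.87 to 2.498).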

How the results depend on the processing

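Of 644 values recomputed under the alternatives, 633 kept their direction and their side of the threshold, 10 reversed and 1 passed it. The 633 include changes that could not move. Leaving out a library of the third group, or adding the replicate block, leaves the change between the other groups as it was. Foxj1 was counted in both limma and the exact test, so 3 of the 10 reversals repeat ones among the 7 from limma. With array weights, limma called 1 gene in FMT-SP against FMT-CON, which is no motile cilia gene. The change of Foxj1 in FMT-DSS against FMT-CON turned positive with array weights (0.048), without FMT-DSS 2 and FMT-DSS 4 together (0.11), and without FMT-CON 1 and FMT-SP 3 together (0.21). Leaving out single libraries gave -0.52 to 0.21 (0.21 without FMT-CON 1, 0.14 without FMT-CON 2 and 0.10 without FMT-DSS 4). In FMT-SP against FMT-DSS it was 0.065 with the choroid plexus covariate and -0.93 to -0.10 over left-out libraries, and in FMT-SP against FMT-CON -1.002 to -0.18. None of these passed a test, and the cause was not tested. In FMT-DSS against FMT-CON, 36 members were higher and 28 lower with array weights, and 16 higher and 15 lower among the 31 with a mean of at least 1 FPKM. At an unadjusted p under 0.05, in place of 1, 3 and 0 members in the 3 comparisons, array weights gave 1, 4 and 6 (1.56%, 6.25% and 9.38%, against 3.61%, 3.35% and 6.66% of all genes) and the covariate 5, 3 and 2 (7.81%, 4.69% and 3.13%, against 7.48%, 4.87% and 1.149%). Array weights gave 1154 genes in FMT-SP against FMT-CON, in place of 136. Motile cilia genes called stayed at 0 in the 3 comparisons under all alternatives run.

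The replicate numbers were not taken as pairs: same-numbered libraries correlated in their deviations at 0.01 to 0.56, 0.09 to 0.50 and -0.36 to 0.65 in the 3 comparisons, and 1, 3 and 2 of 4 correlated best with their own number. The libraries numbered 4 gave the highest value in each comparison (0.56, 0.50 and 0.65) and correlated best with their own number in all 3. The other numbers ran from -0.36 to 0.29. With the replicate block 0 genes were called in each comparison, with 1606, 1196 and 440 genes at an unadjusted p under 0.05, in place of 772, 563 and 136, and 3, 5 and 0 members (4.69%, 7.81% and 0%, against 9.27%, 6.90% and 2.54%).

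Low members rest on few fragments, such as Cfap99 with an estimated 2.97 to 19.0 per library, and FPKM carries no counting error. The labels name no batch.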
